A study of Mus musculus with 6 samples.

Results

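G6pd2 and Ldhal6b are mouse genes known for their expression in the testis, and both have a reference probe on the array that was used here for hippocampal RNA. The members were chosen by accession: among the non-control probes of the array, the 15 reference probes carry a RefSeq accession, and the accessions NM_019468.2 and NM_175349.2 belong to G6pd2 and Ldhal6b. These are 2 of 60915 probes, and with 20 spots each they make up 40 of 61200 non-control spots on every array.

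The RNA came from whole hippocampus of C57BL/6 offspring on postnatal day 20. In the vehicle group (n = 3 arrays) the dams drank 1% saccharin, and in the nicotine group (n = 3 arrays) they drank 200 μg/ml nicotine in 1% saccharin from before mating until the pups were weaned. Saccharin was therefore common to both groups, exposure was through the dam, and the labels give neither the sex nor the litter of a sample, so p-values measure the spread between these samples. Each sample was labelled with Cy3 and hybridized to its own array, and the comparison asks whether the signal of these probes differs between nicotine and vehicle offspring.

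Glucose-6-phosphate dehydrogenase opens the oxidative branch of the pentose phosphate pathway and supplies NADPH, which cells use for reductive synthesis and for protection from oxidants. The form found in most tissues is encoded on the X chromosome by G6pdx, and G6pd2 is an autosomal retrocopy of that gene, made by reverse transcription of its mRNA. Lactate dehydrogenases interconvert pyruvate and lactate at the end of glycolysis, and Ldhal6b is an autosomal member of this family that lies outside the Ldha and Ldhc cluster. Retrocopies of metabolic genes that are active in male germ cells are a familiar class in mammals, because the X chromosome is silenced during meiosis in the male. Gapdh, a glycolytic enzyme of all cells, was taken as the ubiquitous gene beside which the members are shown.

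In the RefSeq gene table for GRCm38.p6, G6pd2 occupies 1635 bases of chromosome 5 (61808843 to 61810477), whereas G6pdx spans 19398 bases of the X chromosome. Ldhal6b occupies 1445 bases of chromosome 17 (5417323 to 5418767), and Ldha spans 13354 bases of chromosome 7. Short spans are usual for retrocopies, which lack introns. To see what G6pd2 shares with its parent gene at the transcript start, the RefSeq windows around annotated starts were compared on the strand of the gene. The G6pd2 and G6pdx windows share a run of 27 identical bases, shown in capitals, and the 60 bases before it, shown in lower case, match at 12 positions.

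Shared run, G6pd2 (chr5:61808833-61808859, plus strand) and G6pdx (chrX:74428839-74428865, minus strand): CTACAGATCTGTGAACGTGTTTGGCAG
Before the run, G6pd2 (chr5:61808773-61808832, plus strand): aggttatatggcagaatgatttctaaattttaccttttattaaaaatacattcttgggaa
Before the run, G6pdx (chrX:74428866-74428925, minus strand): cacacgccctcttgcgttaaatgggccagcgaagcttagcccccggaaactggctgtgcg

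The run begins 10 bases before the annotated start of G6pd2 and at base 16 of the annotated G6pdx transcript, so sequence that the parent gene transcribes overlaps the annotated start of the copy. With an ungapped extension to the end of the G6pdx window, 34 of 35 bases match. Of 32850 other windows compared with that of G6pd2, only the G6pdx window holds a run of this length, and the longest run among the rest is 16 bases. For Ldhal6b the longest run shared with a window of Ldha or Ldhb is 8 bases and with Ldhc 9 bases, and 74.9% and 32.5% of all windows share runs of at least these lengths. These windows cover the starts only. The array files pair the probes with an accession and not with their letters, so whether the G6pd2 probe also binds G6pdx RNA, or the Ldhal6b probe that of other lactate dehydrogenases, was not tested.

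The arrays lay on 2 slides, as read from the scanner headers, with vehicle replicates 1 and 2 and nicotine replicates 2 and 3 on slide 1 and vehicle replicate 3 and nicotine replicate 1 on slide 2. Slide 1 was the brighter one: its arrays had a 75th percentile of 291 to 344 in signal and 63.2% to 66.4% of their spots well above background, against 147 to 149.7 and 48.4% to 49.0% on slide 2. No spot was saturated. Each array carries 15 negative control probes of 20 spots, which were used as the background of the members. The probes of hippocampal cell type and male germ cell markers are not named in the files, so the labelled tissue was not checked against its markers.

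G6pd2 gave a clear signal on all arrays. Every one of its 120 spots on the 6 arrays was well above background. As a geometric mean over its spots, the vehicle arrays gave a signal of 233, 197 and 92.0 for replicates 1 to 3. The nicotine arrays gave 98.1, 239.9 and 206 in the same order. The low values are those of slide 2, where the 75th percentile was lower too, and they occurred in both groups. On the same arrays the brightest negative control probe gave 6.03 to 15.7, so G6pd2 was 10.6-fold to 18.9-fold brighter than the brightest and 18.9-fold to 55.9-fold brighter than the median negative control probe.

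The G6pd2 probe was brighter than 69.6% to 71.2% of the probes on each array. The Gapdh probe, at 83264 to 183296, was brighter than 99.9% of them. Within an array, G6pd2 minus Gapdh ran from -9.86 to -9.33 on the log2 scale. Probes differ in how well they bind their target, so these are values of signal and not a ratio of transcripts.

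**Figure D1:**
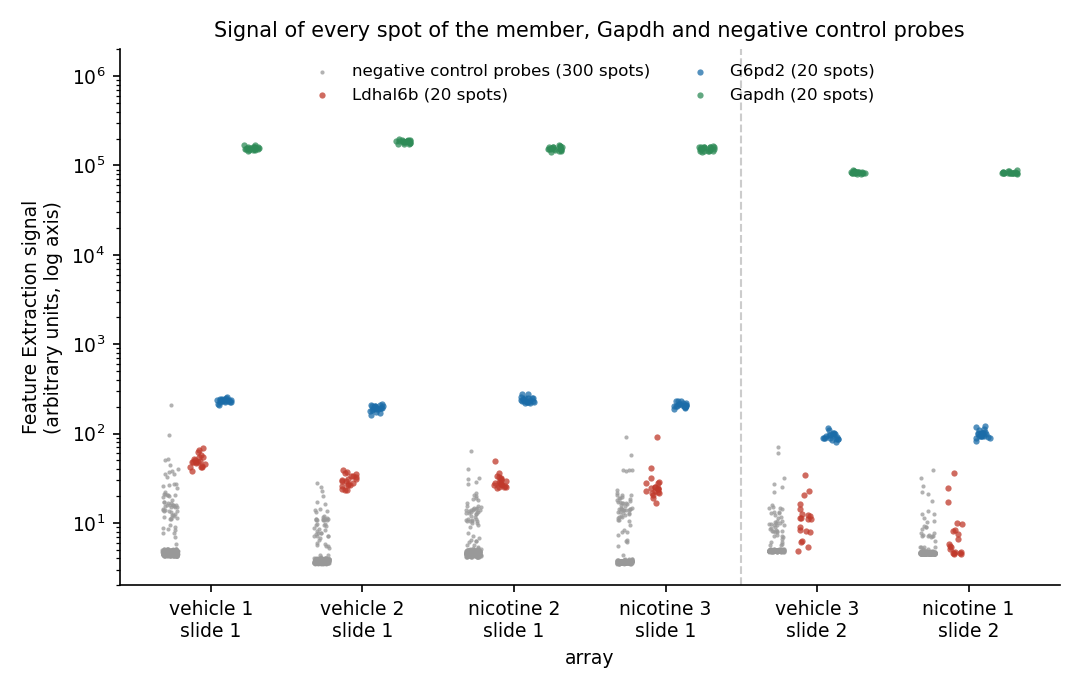
Feature Extraction signal (log axis, arbitrary units) of each of the 20 spots of Ldhal6b (red), G6pd2 (blue) and Gapdh (green) and of the 300 spots of 15 negative control probes (grey) on each array, with slide 1 left and slide 2 right of the dashed line. G6pd2 lies above the bulk of the negative control spots on all 6 arrays, and Ldhal6b reaches into their range on both arrays of slide 2.

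After division by the array's 75th percentile, the log2 signal of G6pd2 was -0.55, -0.56 and -0.68 in vehicle replicates 1 to 3 and -0.61, -0.52 and -0.71 in nicotine replicates 1 to 3. The groups overlapped, and both the highest and the lowest array were from nicotine offspring. The means were -0.60 ± 0.07 (SD, n = 3) and -0.61 ± 0.09 (SD, n = 3). The log2 difference, nicotine minus vehicle, was -0.01 with a standard error of 0.20 and a 95% interval of -0.48 to 0.45 in limma, so that changes larger than 1.39-fold in either direction lie outside it. The adjusted p was 1 in limma with Benjamini-Hochberg adjustment over the 30233 probes tested, of which 0.0364% passed an adjusted p of 0.05 and 3.05% passed the study's thresholds of p and 1.5-fold. The exact permutation test over arrays gave a two-sided p of 0.9, where 0.1 is the smallest that 3 arrays against 3 allow. Around the same difference, the interval narrowed to -0.35 to 0.32 with slide as a block and to -0.20 to 0.17 in the methods' t-test. It widened to -0.62 to 0.59 in limma over all 60915 probes and to -0.76 to 0.73 with replicate number as a block.

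G6pd2 was also the steadiest of the named reference probes. The SD of its log2 signal over all 6 arrays of both groups was 0.07, the lowest of 15 probes, against 0.21 for Gapdh and a median of 0.36 over 30197 probes with a value on all arrays. Of these probes 0.411% had a lower SD. Most of them have a single spot, whereas G6pd2 is an average of up to 20, and single G6pd2 spots followed across the arrays had a median SD of 0.10. G6pd2 ranked lowest of 15 also in the authors' processed values, with an SD of 0.06, and second of 15 after quantile normalization. Without any scaling between arrays its SD was 0.63 and it ranked 11 of 15, as its signal fell on slide 2 together with the 75th percentile of these arrays. G6pd2 lies close to that percentile in brightness, and the part of this closeness in its low SD was not tested.

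Ldhal6b was dim and its detection followed the slide. On slide 1, 20 of 20 spots were well above background on both vehicle arrays and on nicotine replicate 2, and 19 of 20 on nicotine replicate 3. On slide 2 it was 1 of 20 in vehicle replicate 3 and 2 of 20 in nicotine replicate 1. Over both slides 82 of 120 Ldhal6b spots were well above background, and 102 of 120 exceeded the mean of the negative control spots by over 2 SD. On slide 2 the latter held for 13 of 20 spots in vehicle replicate 3 and 9 of 20 in nicotine replicate 1. On each array of slide 1 the brightest negative control probe also exceeded that threshold. Of the 300 negative control spots per array, 3 to 15 were marked well above background.

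Averaged in the same way, the Ldhal6b signal of vehicle replicates 1 to 3 was 49.8, 29.8 and 9.40, and that of nicotine replicates 1 to 3 was 6.26, 28.1 and 23.7. It was brighter than 34.3% to 48.4% of the probes of its array. On slide 1 it was 1.58-fold to 3.17-fold brighter than the brightest negative control probe, while on slide 2 this ratio was 1.08 in vehicle replicate 3 and 1.04 in nicotine replicate 1. None of the 15 negative control probes reached Ldhal6b on any array, but on slide 2 the distance was small. On the 2 arrays of slide 2 its values are therefore given as measured and stand for signal not well above background.

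Relative to the 75th percentile, the log2 signal of Ldhal6b was -2.78, -3.29 and -3.97 in vehicle replicates 1 to 3 and -4.58, -3.61 and -3.82 in nicotine replicates 1 to 3. Vehicle replicate 1 was the highest array and nicotine replicate 1 the lowest, and the groups overlapped because vehicle replicate 3 lay below both nicotine arrays of slide 1. The means were -3.35 ± 0.60 (SD, n = 3) in vehicle and -4.01 ± 0.51 (SD, n = 3) in nicotine offspring. Of all probes 5.84% had groups of 3 that did not overlap in one direction or the other.

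**Figure D2:**
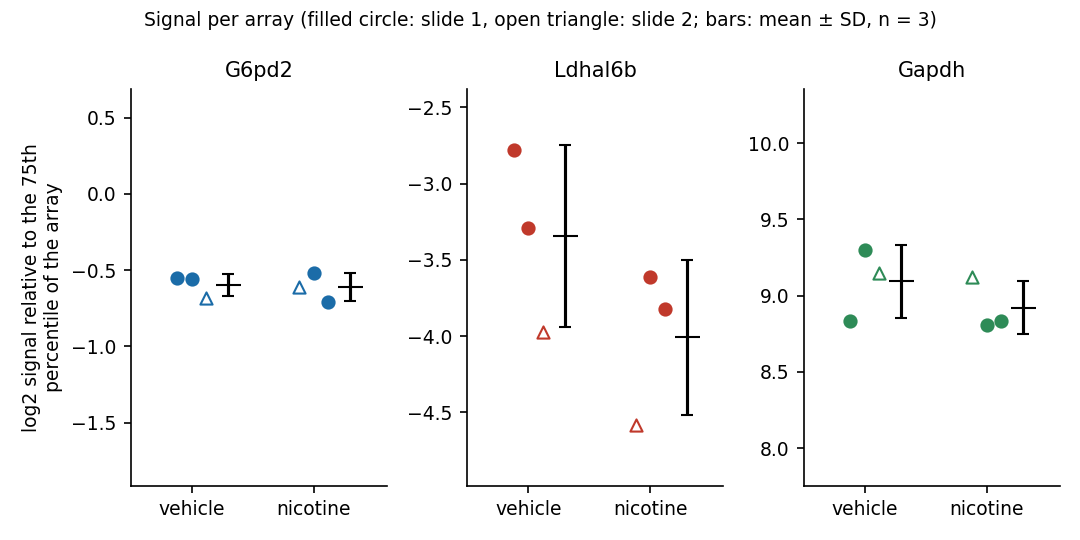
Log2 signal relative to the 75th percentile of the array for G6pd2, Ldhal6b and Gapdh in vehicle and nicotine offspring, with slide 1 as filled circles, slide 2 as open triangles, black bars for mean ± SD (n = 3) and the same span of the vertical axis in each panel. G6pd2 stays within -0.71 to -0.52 on all arrays, and Ldhal6b is lowest on slide 2 in both groups.

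Ldhal6b did not pass the filter on dim probes, which asks for a signal well above background on every array of a group, so it was tested among all 60915 probes without that filter. The log2 difference, nicotine minus vehicle, was -0.66 with a standard error of 0.42 and a 95% interval of -1.65 to 0.33 (adjusted p = 1 in limma with Benjamini-Hochberg adjustment, where 0.0115% of the probes passed 0.05). The exact permutation test gave a two-sided p of 0.3. The median log2 difference of all probes was -0.06. Where an array of slide 2 was left out, Ldhal6b could pass the dim-probe filter. On slide 1 alone the interval was -1.35 to -0.02 with the filter and -1.39 to 0.02 without it, with adjusted p of 0.804 and 0.907 in limma. Without vehicle replicate 3 it was -1.85 to -0.10 with the filter and -1.95 to 0.01 without it, with adjusted p of 0.699 and 0.870 in limma. Without vehicle replicate 3 it passed only through the vehicle group, where it was higher, so that fit is no support for a difference. Without nicotine replicate 1 the adjusted p was 1 with the filter and 0.934 without it in limma. Leaving out nicotine replicate 1 reduced the Ldhal6b difference to -0.37 and leaving out vehicle replicate 1 to -0.38, and normexp on the median pixel intensity, with an offset of 50 added to every signal, reduced it to -0.23.

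As measured, Ldhal6b was lower in the nicotine offspring on each slide, but on slide 2 only 1 and 2 of its 20 spots were well above background. On slide 1 both nicotine arrays lay below both vehicle arrays, with a mean difference of -0.68, and 18.9% of all probes did the same. On slide 2 the difference between nicotine replicate 1 and vehicle replicate 3 was -0.61, and 15.2% of all probes were lower in nicotine offspring without overlap on both slides. With slide as a block in limma, the difference of -0.66 had a 95% interval of -1.13 to -0.19 and an unadjusted p of 0.0141, and 6.96% of all probes had an unadjusted p under 0.05 in that fit. The adjusted p was 0.678 in limma, and 0.0131% of all probes passed 0.05. On the same scale the lowest signal well above background was -2.62 in vehicle replicate 3 and -2.75 in nicotine replicate 1, above every Ldhal6b value of slide 1. The slide 2 values of Ldhal6b lie below these levels, and the levels themselves differ by -0.13, nicotine minus vehicle. Permuting the labels within slides gave an exact two-sided p of 0.167, the smallest that this layout allows.

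As the 20 spots lie at the same positions on every array, the arrays of a slide could also be compared position by position. Ldhal6b was brighter in vehicle replicate 1 than in nicotine replicate 2 at 20 of 20 positions and than in nicotine replicate 3 at 19 of 20. Vehicle replicate 2 was brighter than nicotine replicate 2 at 16 of 20 positions and than nicotine replicate 3 at 19 of 20. On slide 2, vehicle replicate 3 was brighter than nicotine replicate 1 at 17 of 20 positions. The median differences were 0.25 to 0.98 on the log2 scale in the slide 1 pairs and 0.55 on slide 2, where Ldhal6b was not well above background. The 4 pairs of slide 1 reuse the same 4 arrays, and spots of an array measure the same RNA, so these counts describe the arrays and are no test of the groups.

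For G6pd2 the same counts went both ways. The vehicle array was brighter at 18 and 16 of 20 positions in the pairs with nicotine replicate 3, and at 7 and 5 of 20 in the pairs with nicotine replicate 2. On slide 2 it was brighter at 5 of 20. The medians of the 5 pairs ran from -0.08 to 0.14, vehicle minus nicotine.

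**Figure D3:**
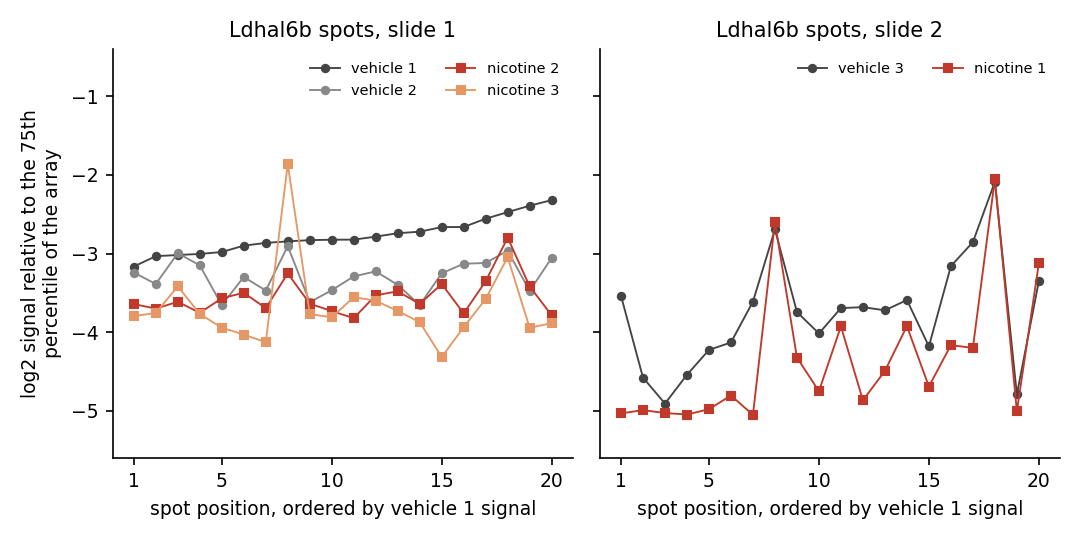
Log2 signal of Ldhal6b relative to the 75th percentile of the array at each of its 20 spot positions, ordered by vehicle replicate 1, with vehicle arrays in grey circles and nicotine arrays in red or orange squares, slide 1 on the left and slide 2 on the right. Vehicle arrays are brighter at 16 to 20 of 20 positions in each pair, and 2 positions are the brightest on every array but vehicle replicate 1.

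Spots of Ldhal6b also differed by position. The spots at row 119, column 114 and at row 163, column 4 were each among the 2 brightest Ldhal6b spots on 5 of the 6 arrays, the exception being vehicle replicate 1. Between 2 and 3 Ldhal6b spots per array were marked as outliers and left out on slide 2, on nicotine replicate 2 and on nicotine replicate 3, and none on vehicle replicates 1 and 2. With outlier spots kept the group difference was -0.59, and with the median over spots in place of the mean it was -0.80. Among the spots used, the SD of the log2 signal within an array was 0.14 to 0.23 on slide 1 and 0.51 and 0.54 on slide 2 for Ldhal6b, against 0.05 to 0.13 for G6pd2.

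Differences within an array are free of the scaling between arrays. G6pd2 minus Gapdh was -9.69 ± 0.27 (SD, n = 3) in vehicle and -9.53 ± 0.20 (SD, n = 3) in nicotine offspring, a group difference of 0.16 on the log2 scale (exact permutation test, two-sided p = 0.5) that ran from 0.06 without nicotine replicate 2 to 0.31 without vehicle replicate 1, and was 0.07 without vehicle replicate 2 and 0.09 without vehicle replicate 3. Gapdh itself was 9.09 ± 0.24 and 8.92 ± 0.17, a difference of -0.17. Ldhal6b minus Gapdh was -12.44 ± 0.76 (SD, n = 3) and -12.93 ± 0.68 (SD, n = 3), a group difference of -0.49 (exact permutation test, two-sided p = 0.5) that shrank to -0.07 without vehicle replicate 1, to -0.10 without nicotine replicate 1 and to -0.07 with normexp. G6pd2 minus Ldhal6b was 2.23, 2.73 and 3.29 in vehicle replicates 1 to 3 and 3.97, 3.09 and 3.12 in nicotine replicates 1 to 3. The distance between the members was larger in nicotine offspring by 0.65 (exact permutation test, two-sided p = 0.3), with overlap between the groups at vehicle replicate 3. This fell to 0.36 without nicotine replicate 1, to 0.39 without vehicle replicate 1 and to 0.21 with normexp, and it includes the slide 2 values at which Ldhal6b was not well above background. Permuting within slides gave exact p values of 0.5, 0.333 and 0.167. With 0.1 and 0.167 as the smallest values that the 2 permutation schemes allow, neither could reach 0.05.

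The reference probes with the most similar pattern over the 6 arrays were found by Pearson's r of the log2 signal, as a description. For G6pd2 they were Ldhal6b (r = 0.48), Nono (r = 0.27), which encodes an RNA-binding paraspeckle protein, and Actb (r = 0.20), which encodes beta-actin. For Ldhal6b they were Actb (r = 0.51), G6pd2 (r = 0.48) and Gk (r = 0.28), the X-linked glycerol kinase. Gapdh had an r of -0.09 with G6pd2 and -0.27 with Ldhal6b. The r of Ldhal6b that were largest in size were negative, at -0.86 with Gusb, -0.78 with Hsp90ab1 and -0.62 with Rpl13a, which encode a lysosomal glucuronidase, a chaperone and a ribosomal protein. The lowest r of G6pd2 was -0.52, with Tfrc, the transferrin receptor. These 4 genes were picked after their values were seen. All values come from 6 arrays on 2 slides with a common scaling, and each r of Ldhal6b includes the 2 arrays of slide 2, on which most of its spots were not well above background.

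Of the genes that accompany the members in their pathways, few could be followed by name. G6pd2 was the only named gene of 9 pentose phosphate pathway genes, Ldhal6b the only one of 5 lactate dehydrogenases and Gapdh the only one of 14 glycolytic genes. None of 8 further testis-type genes, among them Pgk2 and Gk2, and none of 7 male germ cell markers had a named probe. G6pdx, Ldha, Ldhb and Ldhc were thus not analysed here.

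**Figure D4:**
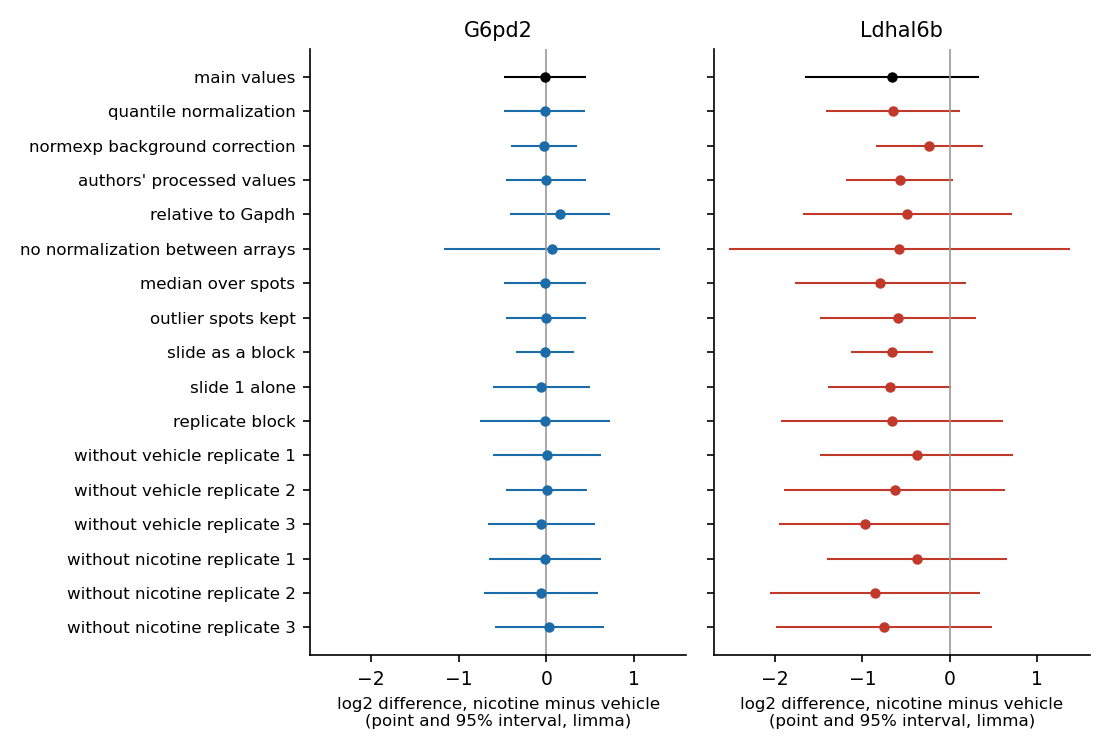
Log2 difference between nicotine and vehicle offspring (point) with its 95% interval in limma (line) for G6pd2 and Ldhal6b, under the main values (black) and other ways of processing, the replicate block and single arrays left out. G6pd2 stays between -0.06 and 0.16, with intervals that include 0, and Ldhal6b is below 0 in each, between -0.97 and -0.23, where, without the filter on dim probes, the interval leaves out 0 only with slide as a block among the settings drawn. The slide and replicate blocks can change the interval and not the point, as the layout is balanced.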

How the data were processed

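What the authors deposited for each of the 6 arrays is scanner output of Feature Extraction 11.0.1.1: one intensity per spot, already background-subtracted, with the median pixel intensity, local background and flags. Processed log2 values, which the methods trace to GeneSpring GX, were deposited by the authors as well. Spots flagged as outliers (21 to 46 an array) and control spots were dropped, the log2 intensity was centred on the array's 75th percentile without a pseudocount, and replicate spots were averaged. A probe was kept if over 50% of its spots were well above background on each array of 1 group or the other (30233 of 60915). Groups and replicate numbers came from the labels, and gene names from RefSeq accessions (15 of 15 reference probes matched). Groups were compared without covariates by limma (3.58.1, R 4.3.3, lmFit and eBayes) and by exact permutation over arrays. The limma fit was also run on arrays simulated from these data, with changes larger than the differences reported here. Intervals are at 95% and use the variance that limma shares between probes. The number of arrays limits the precision and, for Ldhal6b, so does signal over background. By rule, the named genes were the members, Gapdh and the 3 most similar reference probes for each member; Gusb, Hsp90ab1, Rpl13a and Tfrc, the least similar, were added after their values were seen. The members, lists and tests were chosen with earlier results of these data known. Alternatives covered normalization, background (normexp on gMedianSignal, offset 50), filter, spots, slide, replicate number, the methods' t-test, the authors' values and single arrays left out. Combinations of the slide block with other values, and dim values held at the lowest signal well above background, were chosen after seeing the data.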

Additional observations from a re-analysis of the deposited data

How the results depend on the processing

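The G6pd2 difference, nicotine minus vehicle in log2, was -0.01, too near 0 to have a stable sign: it was 0.067 without normalization between arrays and 0.16 relative to Gapdh, and with single arrays left out it ran from -0.060 (without nicotine replicate 2) to 0.034 (without nicotine replicate 3). In the alternatives run, no adjusted p of G6pd2 or Ldhal6b was under 0.05 in limma. Ldhal6b was lower in nicotine offspring in all 21 alternatives that gave a value, and with single arrays left out it ran from -0.97 (without vehicle replicate 3) to -0.37 (without nicotine replicate 1). The methods' t-test and the slide and replicate blocks had to return the difference of the same values without them, as the layout is balanced. Their agreement in direction is therefore no support. With all arrays in the fit, the filter on dim probes and that for a signal well above background on all 6 arrays gave no value for Ldhal6b, which they remove. With dim values at the lowest signal well above background, an alternative chosen after seeing the data, the Ldhal6b difference was -0.50, and with slide as a block as well the adjusted p was 0.484 in limma. In this alternative the slide 2 values of Ldhal6b are replaced by that level of their array. The slide 2 difference that enters it, -0.13, is thus one between these levels and not between Ldhal6b signals. The within-array differences kept their direction in the 12 alternatives to each: 0.06 (without nicotine replicate 2) to 0.31 (without vehicle replicate 1) for G6pd2 minus Gapdh, -0.83 (without vehicle replicate 3) to -0.07 (normexp, and without vehicle replicate 1) for Ldhal6b minus Gapdh, and 0.21 (normexp) to 0.92 (without vehicle replicate 3) for G6pd2 minus Ldhal6b. Among the 12, the slide and replicate blocks could not change the difference. The groups share replicate numbers, but same-numbered arrays deviated from their group means with correlations of -0.64, 0.45 and -0.69, so the numbers were not taken as pairs; the replicate 2 arrays also share slide 1, and the other pairs lie on different slides. A replicate block left the differences at -0.01 for G6pd2 and -0.66 for Ldhal6b, with adjusted p of 1 for both in limma. Ldhal6b had over 50% of its spots well above background on slide 1 only, and slide 2 holds 1 array per group.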
